A study of Homo sapiens with 6 samples.

Results

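The RNA of 10 genes of the YAP/TAZ-TEAD module was followed in ARID1A-KO and WT AID-DIvA cells. They are the co-activators YAP1 and WWTR1 (the gene of TAZ), the transcription factors TEAD1, TEAD2, TEAD3 and TEAD4, and the target genes CTGF, CYR61, ANKRD1 and AMOTL2. Membership was set by gene name, and all 10 were found among the 57820 genes of the deposited tables, where CTGF and CYR61 are the names of the genes now called CCN2 and CCN1. RNA-seq covered 3 WT and 3 ARID1A-KO samples of untreated cells, numbered 3, 4 and 5 in each genotype. AID-DIvA is a human line made from U2OS osteosarcoma cells by integration of a vector for the AsiSI nuclease, which auxin can remove. The nuclease was not induced in any of these samples, so all 6 samples carry the vector and all 6 were untreated. ARID1A, a subunit of the SWI/SNF chromatin remodelling complex, was knocked out with Cas9 and a pair of guide RNAs, and knockout clones were grown out. Which clone was sequenced is not given in the sources used here, so a difference between genotypes and a difference between clones cannot be told apart. The labels do not say that replicates are separate cultures, and the p-values then measure the spread between these samples only.

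The Hippo pathway is a kinase cascade best known for restraining organ growth and for reading cell density and tension. Its kinases MST1 and MST2 activate LATS1 and LATS2, which phosphorylate YAP and TAZ and keep them in the cytoplasm. YAP and TAZ that escape phosphorylation enter the nucleus and act through TEAD proteins, since neither binds DNA by itself. CTGF, CYR61, ANKRD1 and AMOTL2 are the genes most often read as a measure of their activity, and the SWI/SNF complex that contains ARID1A has been described as binding YAP and TAZ. Most of this regulation acts on the proteins and where they are in the cell, which RNA-seq does not measure. The comparison therefore addresses the RNA levels of the regulators and of their targets with and without ARID1A.

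TEAD proteins bind the sequence GGAATG. On the opposite strand a copy reads CATTCC. Binding sites of AP-1, with the letters TGANTCA, are often found close to TEAD sites. RefSeq promoters (GRCh38.p14) were searched for both on either strand in the 250 bases before each gene start, and 7 of the 10 genes had an entry, with 10 windows in all. Of these windows, 4 held GGAATG and 1 held TGANTCA, while 11.9% of all 35116 promoters of this length held GGAATG and 6.57% held TGANTCA. The windows of CTGF (3 copies, beginning 169, 104 and 95 bases before the start), ANKRD1 (2 copies, 220 and 128 bases before, with TGANTCA 195 bases before), AMOTL2 (1 copy, 69 bases before, in the second of its windows) and YAP1 (1 copy, 162 bases before) are shown because they hold the motif and because the genes differ in what they did. They are written 5′ to 3′ on the strand of the gene, with the motifs in capitals. TEAD1, TEAD4 and CYR61 had no entry, and the windows of WWTR1, TEAD2 and TEAD3 held neither motif. A match is a description of the letters and was not tested as a binding site.
CTGF, chr6:131951373-131951622, minus strand: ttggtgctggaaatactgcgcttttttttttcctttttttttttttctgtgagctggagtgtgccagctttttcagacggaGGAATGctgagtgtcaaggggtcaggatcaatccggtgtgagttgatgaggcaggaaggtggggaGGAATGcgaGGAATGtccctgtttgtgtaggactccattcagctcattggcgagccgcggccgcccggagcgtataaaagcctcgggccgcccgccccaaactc
ANKRD1, chr10:90921088-90921337, minus strand: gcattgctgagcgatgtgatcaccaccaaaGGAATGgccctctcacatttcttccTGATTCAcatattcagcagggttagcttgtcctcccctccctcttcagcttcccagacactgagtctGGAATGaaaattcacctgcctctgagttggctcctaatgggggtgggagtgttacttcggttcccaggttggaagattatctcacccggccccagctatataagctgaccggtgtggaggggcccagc
AMOTL2, chr3:134374448-134374697, minus strand: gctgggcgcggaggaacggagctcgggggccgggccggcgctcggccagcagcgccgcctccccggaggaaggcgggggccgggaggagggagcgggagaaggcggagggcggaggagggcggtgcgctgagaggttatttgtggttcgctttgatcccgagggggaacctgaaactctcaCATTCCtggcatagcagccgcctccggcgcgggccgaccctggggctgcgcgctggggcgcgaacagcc
YAP1, chr11:102110197-102110446, plus strand: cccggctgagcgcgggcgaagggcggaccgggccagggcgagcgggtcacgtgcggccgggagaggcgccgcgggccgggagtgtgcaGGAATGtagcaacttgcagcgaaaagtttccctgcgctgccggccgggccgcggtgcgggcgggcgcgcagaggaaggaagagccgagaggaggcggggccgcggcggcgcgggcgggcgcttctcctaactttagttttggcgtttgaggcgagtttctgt

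Each sample had between 54512105 and 84088708 reverse-stranded gene counts, and ARID1A itself went from 173 ± 6.67 to 25.9 ± 1.38 CPM (counts per 1000000 counts, SD, n = 3 each). Of 19599 genes tested, 36.2% were called, that is, had a Benjamini-Hochberg adjusted p under 0.05 in the quasi-likelihood test of edgeR. The osteoblast genes COL1A1, SPARC, RUNX2, ALPL and SPP1 were detected, but the defining markers IBSP, BGLAP and SP7 were at or near 0, as was COL1A2. The 9 osteoblast markers summed to between 1235 and 1295 CPM in WT and between 726 and 809 in ARID1A-KO samples, nearly all of it COL1A1 and SPARC. Of the 6 that were tested 4 fell, among them ALPL (log2 fold change -2.45) and SPP1 (-1.45). Epithelial markers summed to between 726 and 839 CPM in WT and between 496 and 521 in ARID1A-KO samples, nearly all of it KRT8 and KRT18, whereas KRT19 was near 0. Of the 5 tested, 3 fell and 1, EPCAM, rose (log2 fold change 0.44, adjusted p = 0.0274 from edgeR), a call lost without WT replicate 4 or 5 or ARID1A-KO replicate 3 or 4 (adjusted p at most 0.0850 from edgeR). The 5 blood cell markers summed to at most 2.91 CPM in any sample, with HBB at 0, and 3 endothelial markers to at most 2.65 CPM. The part of these differences in the results below was not tested, and in bulk RNA fewer cells of a kind and less RNA per cell cannot be told apart.

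All 10 genes passed the filter on low counts, and 5 of them were called, ANKRD1 higher and YAP1, WWTR1, TEAD4 and AMOTL2 lower in ARID1A-KO cells. Among all genes tested, 17.8% were called higher and 18.4% lower, so the number called does not in itself set these genes apart. ANKRD1 rose 2.03-fold, while WWTR1 fell by 16.1%, YAP1 fell by 18.1%, TEAD4 fell by 23.7% and AMOTL2 fell by 31.1%. The median log2 fold change of the 10 genes was -0.13, beside 0.01 for all genes tested. The target genes did not move together, since ANKRD1 rose, AMOTL2 fell and CTGF and CYR61 were not called. For 6 of the 10, the CPM of the genotypes did not overlap, as for 49.5% of all genes tested.

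**Figure D1:**
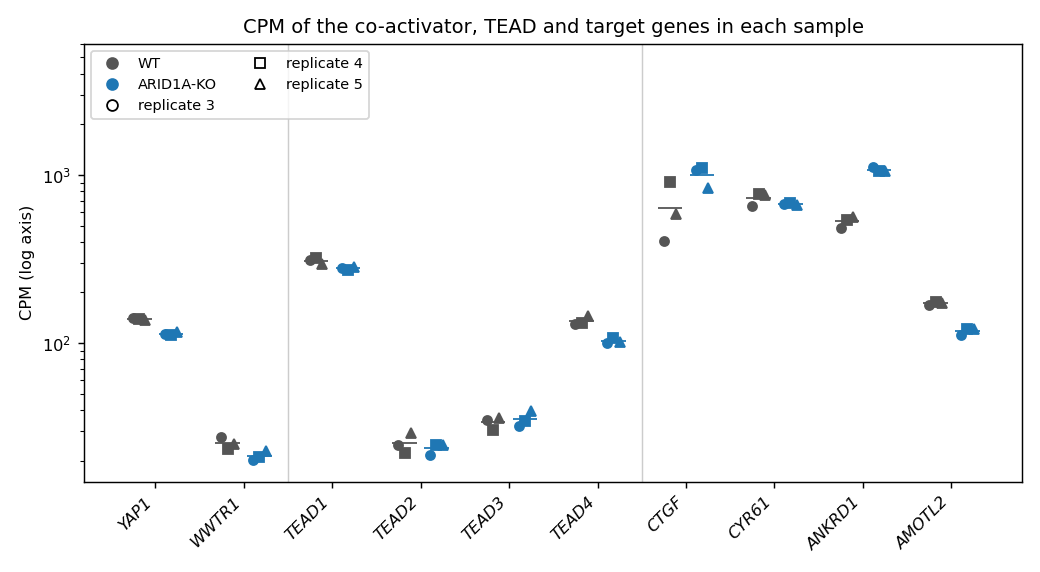
CPM (log axis) of each gene in the 3 WT (grey) and 3 ARID1A-KO (blue) samples, with replicates as symbols and group means as bars; vertical lines separate co-activators, TEAD genes and targets. ANKRD1 sits between 484 and 565 CPM in WT and between 1053 and 1109 in ARID1A-KO samples, whereas CTGF overlaps between genotypes.

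YAP1 (ENSG00000137693.9, GRCh37 chromosome 11 from 101981192 to 102104154, plus strand) had 141, 138 and 137 CPM in WT replicates 3, 4 and 5. In ARID1A-KO replicates 3, 4 and 5 it had 113, 112 and 117 CPM. All WT samples were above all ARID1A-KO samples, with little spread in either genotype. Its mean CPM fell by 18.1%, a log2 fold change of -0.29 (SE 0.05; edgeR quasi-likelihood test, adjusted p = 0.00298). YAP1 stayed called with each sample left out, with an adjusted p of at most 0.0238 from edgeR.

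WWTR1 (ENSG00000018408.10, chromosome 3 from 149235022 to 149454501, minus strand) was expressed at a lower level. Its CPM were 27.8, 23.6 and 25.1 in WT replicates 3, 4 and 5 and 20.3, 21.1 and 22.9 in the ARID1A-KO replicates. The groups did not overlap, but WT replicate 4 and ARID1A-KO replicate 5 differed by less than the SD of either group. WWTR1 had a log2 fold change of -0.25 (SE 0.09; edgeR quasi-likelihood test, adjusted p = 0.0464). This call rested on single samples, since leaving out WT replicate 3 gave an adjusted p of 0.140 in edgeR, WT replicate 5 gave 0.0800, ARID1A-KO replicate 3 gave 0.158 and ARID1A-KO replicate 4 gave 0.142.

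TAZ RNA was a minor share of the co-activator RNA in both genotypes. In TPM, which are per length, YAP1 stood at 97.1 ± 3.02 in WT and 80.5 ± 3.86 in ARID1A-KO cells, and WWTR1 at 13.3 ± 1.29 and 11.3 ± 1.01 (SD, n = 3 each). The log2 ratio of WWTR1 to YAP1 TPM was -2.87 ± 0.10 in WT and -2.83 ± 0.06 in ARID1A-KO samples, which overlapped (two-sided exact permutation p = 0.7). The sum of both fell from 110 ± 4.19 to 91.8 ± 4.85 TPM without overlap, at the smallest p that 3 samples against 3 allow (exact permutation p = 0.1). TPM did not overlap between genotypes for 4 of the 10 genes, YAP1, TEAD4, ANKRD1 and AMOTL2, as for 49.2% of all genes tested.

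The TEAD genes encode the DNA-binding partners of YAP and TAZ, and their proteins share the same DNA-binding domain. TEAD4 was the most abundant of them per length and the only TEAD gene called in edgeR. TEAD4 (ENSG00000197905.4, chromosome 12 from 3068496 to 3149839, plus strand) had 130, 131 and 145 CPM in WT replicates 3, 4 and 5 and 100, 108 and 102 CPM in ARID1A-KO replicates 3, 4 and 5. Every WT sample was above every ARID1A-KO sample. The log2 fold change was -0.39 (SE 0.07; edgeR quasi-likelihood test, adjusted p = 0.00154), and the gene was called in every alternative run, with log2 fold changes between -0.46 and -0.30.

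TEAD1 (ENSG00000187079.10, chromosome 11 from 12695969 to 12966298, plus strand) had 311, 322 and 297 CPM in WT replicates 3, 4 and 5. In the ARID1A-KO replicates it had 280, 272 and 283 CPM. The groups did not overlap, although WT replicate 5 lay closer to ARID1A-KO replicate 5 than to the other WT samples. The log2 fold change was -0.15 (SE 0.06) and did not pass in edgeR (adjusted p = 0.0682), whereas DESeq2 gave an adjusted p of 0.0496. TEAD1 has the longest exons of the 10 genes, 10816 bases, and an offset on exonic length brought its log2 fold change to 0.01.

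TEAD2 and TEAD3, on chromosomes 19 and 6, were the least abundant TEAD genes and overlapped between genotypes. TEAD2 (ENSG00000074219.9) had 24.8, 22.1 and 29.1 CPM in WT replicates 3, 4 and 5 and 21.6, 24.7 and 24.7 CPM in the ARID1A-KO replicates. Its log2 fold change was -0.10 (95% interval -0.34 to 0.15; edgeR quasi-likelihood test, adjusted p = 0.520). TEAD3 (ENSG00000007866.14) had 35.1, 30.3 and 36.0 CPM in WT and 32.2, 34.6 and 39.4 CPM in ARID1A-KO replicates 3, 4 and 5, with a log2 fold change of 0.07 (95% interval -0.15 to 0.28, adjusted p = 0.620 from edgeR). The lowest and the highest samples of both genes were in different genotypes and replicates, and the sign of either log2 fold change turned when 1 sample was left out. TEAD2, which spans from position 49843852, overlaps CTC-301O7.4 on the same strand, which ends at 49843865. Only reads that reach into this short stretch cannot be assigned to either gene.

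The composition of the TEAD pool shifted by a few percentage points. Of the summed TPM of TEAD1 to TEAD4, TEAD4 made up 54.1%, 55.1% and 56.5% in WT replicates 3, 4 and 5 and 50.2%, 51.4% and 48.6% in the ARID1A-KO replicates (exact permutation p = 0.1, the smallest possible). TEAD3 made up 10.9%, 9.50% and 10.5% in WT and 12.05%, 12.3% and 14.03% in ARID1A-KO replicates, again without overlap (exact permutation p = 0.1). This is not a separate result, since shares add up to the whole and a fall of TEAD4 raises those of the others. The TEAD3 level itself overlapped between genotypes (log2 fold change 0.07). The shares of TEAD1, 26.6% and 28.4% on average, and TEAD2, 7.87% and 8.75%, overlapped (exact permutation p = 0.2 for each). The pool itself fell from 474 ± 14.8 to 404 ± 19.6 TPM (SD, n = 3 each, exact permutation p = 0.1). These 6 ratios and shares are 1 family, and with 3 samples against 3 none could pass an adjustment.

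**Figure D2:**
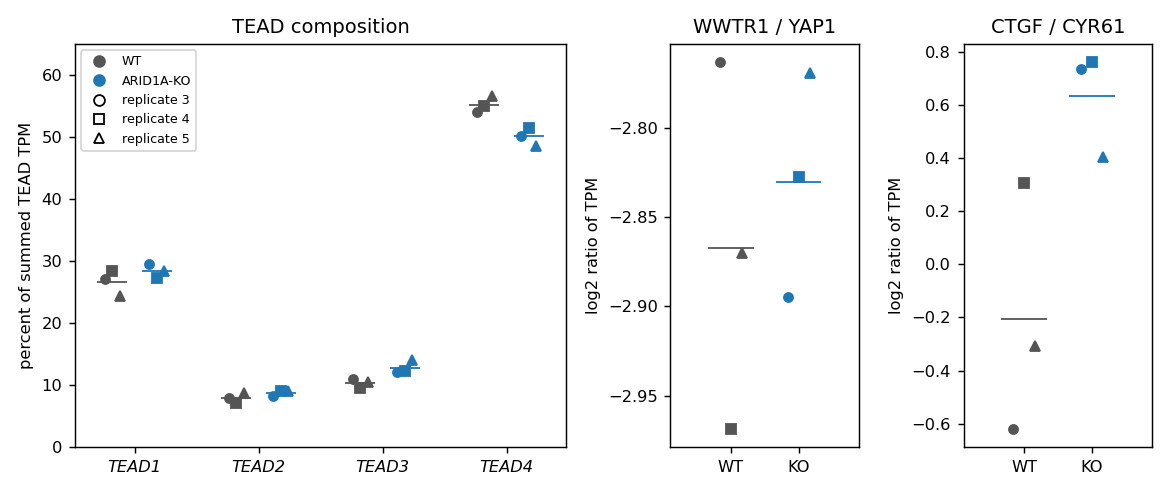
Left, percent of the summed TEAD TPM held by each TEAD gene; middle and right, log2 ratios of TPM for WWTR1 over YAP1 and for CTGF over CYR61, for each WT (grey) and ARID1A-KO (blue) sample with the group mean as a bar. The TEAD4 share lies between 54.1% and 56.5% in WT and between 48.6% and 51.4% in ARID1A-KO samples, and the CTGF to CYR61 ratio is higher in all ARID1A-KO samples.

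ANKRD1 (ENSG00000148677.6, chromosome 10 from 92671853 to 92681033, minus strand), a cardiac ankyrin repeat protein of muscle that is a common readout of YAP and TAZ in other cells, showed the clearest change. It had 484, 537 and 565 CPM in WT replicates 3, 4 and 5. In ARID1A-KO replicates 3, 4 and 5 it had 1109, 1060 and 1053 CPM. The genotypes were far apart compared with the spread within either. This was a log2 fold change of 1.02 (SE 0.07; edgeR quasi-likelihood test, adjusted p = 1.48e-05), and it was called in every alternative, with log2 fold changes between 0.74 and 1.07.

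AMOTL2 (ENSG00000114019.10, chromosome 3 from 134074716 to 134094321, minus strand) encodes an angiomotin that binds YAP and is itself a target, so that it acts in a negative feedback. It had 169, 175 and 172 CPM in WT replicates 3, 4 and 5 and 112, 121 and 122 CPM in ARID1A-KO replicates 3, 4 and 5. The genotypes were well separated. The CPM fell by 31.1%, a log2 fold change of -0.54 (SE 0.06; edgeR quasi-likelihood test, adjusted p = 1.34e-04), and AMOTL2 stayed called with each sample left out.

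CTGF (ENSG00000118523.5, chromosome 6 from 132269316 to 132272513, minus strand) and CYR61 (ENSG00000142871.11, chromosome 1 from 86046444 to 86049645, plus strand) encode secreted matricellular proteins of the same CCN family. CTGF had 404, 904 and 587 CPM in WT replicates 3, 4 and 5 and 1069, 1094 and 840 CPM in ARID1A-KO replicates 3, 4 and 5. WT replicate 4 was above ARID1A-KO replicate 5, so the genotypes overlapped, although the other WT samples were below all ARID1A-KO samples. The log2 fold change was 0.66 (SE 0.24, 95% interval 0.12 to 1.21) and missed the threshold (edgeR quasi-likelihood test, adjusted p = 0.0585).

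Whether CTGF passed depended on which sample was in the fit. Without WT replicate 4 its log2 fold change was 1.01 (adjusted p = 0.00158 from edgeR) and without ARID1A-KO replicate 5 it was 0.78 (adjusted p = 0.0441), whereas without WT replicate 3 it was 0.42 (adjusted p = 0.131). In WT cells the SD of its log2 CPM was 0.58, beside a median of 0.09 and a 90th percentile of 0.20 among the 9928 genes with a mean CPM over 10. The samples with much CTGF, WT replicate 4 and ARID1A-KO replicates 3 and 4, also deviated from their group means in a like way over these genes, with Pearson's r of 0.53 between WT replicate 4 and ARID1A-KO replicate 3 and of 0.54 between WT replicate 4 and ARID1A-KO replicate 4. These r are across genes within libraries, which are not independent replicates, and the part of this shared deviation in the CTGF level was not tested.

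CYR61 differed little between genotypes. It had 651, 768 and 762 CPM in WT replicates 3, 4 and 5, and 674, 677 and 666 CPM in the ARID1A-KO replicates. The ARID1A-KO samples were nearly equal and fell inside the WT range. The log2 fold change was -0.11 (95% interval -0.28 to 0.06; edgeR quasi-likelihood test, adjusted p = 0.283). Set against CYR61 in the same sample, the log2 ratio of CTGF TPM to CYR61 TPM was -0.62, 0.31 and -0.31 in WT replicates 3, 4 and 5 and 0.73, 0.76 and 0.40 in ARID1A-KO replicates 3, 4 and 5. The ratio was higher in every ARID1A-KO sample than in every WT sample, at the smallest possible p (exact permutation p = 0.1).

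The order of the levels in TPM changed among the targets. In WT cells CYR61 (1301 ± 99.4 TPM), CTGF (1184 ± 467) and ANKRD1 (1173 ± 72.7) overlapped with one another, whereas in ARID1A-KO cells ANKRD1 (2413 ± 44.7), CTGF (1899 ± 225) and CYR61 (1219 ± 21.4) were in this order without overlap between neighbours (SD, n = 3 each). Below them came TEAD4, at 262 ± 12.7 TPM in WT cells and at 202 ± 8.73 without ARID1A. AMOTL2 and TEAD1 followed at 126 TPM each in WT cells, where they overlapped, and in ARID1A-KO cells TEAD1 stood at 114 ± 4.67 above AMOTL2 at 88.2 ± 5.68, which overlapped with YAP1. TEAD3, TEAD2 and WWTR1 were the lowest in both genotypes, in this order and without overlap between them.

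Several of these genes lie in regions where most genes moved the same way. Of the 61 other genes tested within 5 Mb of AMOTL2, 57 had a negative log2 fold change and 38 were called lower, with a median of -0.49, close to that of AMOTL2 itself. The 35 genes near YAP1 had a median of -0.32, with 29 negative, and the 40 genes near WWTR1, which is also on chromosome 3, a median of -0.33, with 32 negative. After the neighbours' median was taken off, the log2 fold changes of YAP1 (0.03), WWTR1 (0.08) and AMOTL2 (-0.05) were near 0 and none was called (adjusted p from edgeR 0.664, 0.513 and 0.538).

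ANKRD1 and TEAD4 were still called after this offset. The median log2 fold change of the 77 genes near ANKRD1 was 0.29, with 56 positive, 31 called higher and 5 as far from 0 as ANKRD1, and ANKRD1 less its neighbours stood at 0.74. The 115 genes near TEAD4 had a median of -0.09, and TEAD4 less its neighbours stood at -0.30. These neighbours varied widely, with 74 negative, 36 called lower and a lower quartile of -0.49, beyond TEAD4 itself, and 33 moved as far as TEAD4. Near CTGF and CYR61 the medians were 0.05 each, near TEAD1 0.01, near TEAD3 0.03 and near TEAD2 0.18.

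**Figure D3:**
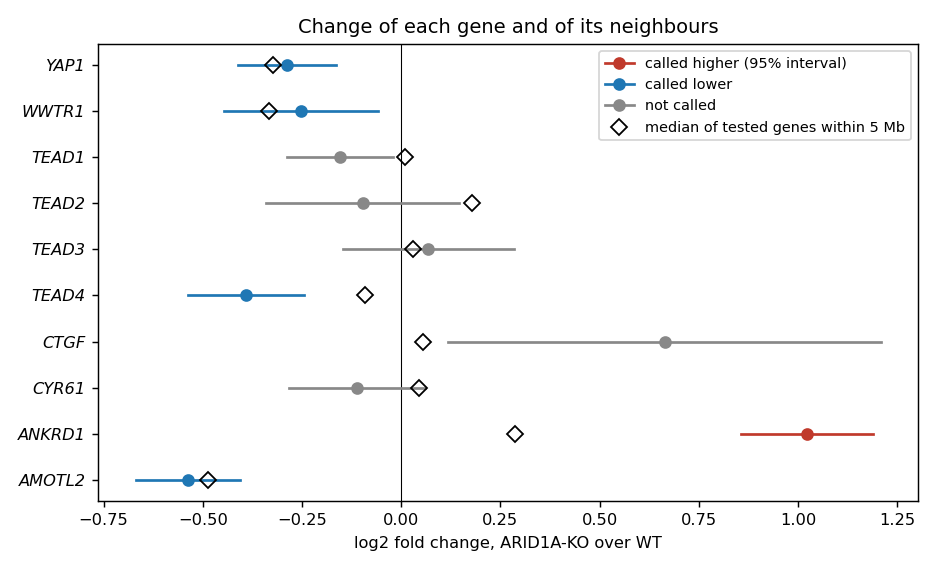
log2 fold change (ARID1A-KO over WT) of each gene with its 95% interval (circles; red, called higher; blue, called lower; grey, not called) and the median log2 fold change of the tested genes within 5 Mb (open diamonds). The diamonds of YAP1, WWTR1 and AMOTL2 lie inside the intervals of these genes, whereas ANKRD1 at 1.02 and TEAD4 at -0.39 lie apart from the medians of theirs, at 0.29 and -0.09.

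The genes around the module were read from lists of 67 genes, chosen with earlier results of these data known. Of the 64 that were tested, 13 were called higher and 21 lower, with a median log2 fold change of -0.08. Of all genes tested 36.2% were called, 17.8% higher and 18.4% lower, and the counts of these short lists are descriptions to be read against those shares. In the kinase core, which holds YAP and TAZ in check, 2 of 7 genes were called in edgeR. MOB1B, a co-activator of LATS kinases, rose by 0.35 on the log2 scale, and STK3, which encodes MST2, fell by 0.32, a call lost with an offset on exonic length (-0.13, adjusted p = 0.182 from edgeR). LATS1 and LATS2 were not called, with log2 fold changes of -0.07 and 0.09.

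Among 9 genes that activate the core, 2 rose and 3 fell, and this count dropped to 3 called without WT replicate 3 or 5 or without ARID1A-KO replicate 3 or 4. WWC1, which encodes the scaffold KIBRA, fell by 0.61 on the log2 scale. Its paralog WWC3 had a log2 fold change of -0.50, with an adjusted p from edgeR of 0.0444 that became 0.149 with WT replicate 3 left out, 0.0615 with WT replicate 5, 0.147 with ARID1A-KO replicate 3 and 0.113 with ARID1A-KO replicate 4 left out. Of 6 genes whose products antagonize LATS or MST kinases, 1 was called, LIMD1, a LIM-domain protein that binds LATS, which fell by 0.67.

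The list of proteins that bind YAP and hold it back has only 3 genes. They were all called lower, as were 18.4% of all genes tested, AMOTL1 by 0.84, the phosphatase PTPN14 by 0.52 and AMOT by 0.24 on the log2 scale. AMOTL1 had between 122 and 133 CPM in WT and between 69.8 and 75.2 in ARID1A-KO samples, and its neighbours had a median log2 fold change of -0.02, unlike those of its paralog AMOTL2. The call of AMOT, also an AMOTL2 paralog, was lost without WT replicate 4 (adjusted p = 0.0832 from edgeR), WT replicate 5 (0.0904), ARID1A-KO replicate 3 (0.102) or ARID1A-KO replicate 4 (0.156). It was also lost with the offset on exonic length (-0.13, adjusted p = 0.221 from edgeR) and with the neighbours' offset, which turned it to 0.04 (adjusted p = 0.736). The length offset brought PTPN14 to -0.26, where it was still called. Of the VGLL genes, which encode cofactors that bind TEADs in place of YAP, VGLL3 fell by 0.88 from 35.1 ± 2.08 to 19.0 ± 0.44 CPM (SD, n = 3 each). VGLL2 and VGLL4 were not called, with log2 fold changes of -0.02 and -0.17, and VGLL1 had no counts in any sample.

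The other CCN genes went in opposite directions. NOV, the gene of CCN3, fell from 84.3 ± 18.1 to 36.0 ± 7.39 CPM (log2 fold change -1.22, adjusted p = 6.38e-04 from edgeR, SD, n = 3 each). WISP1, the gene of CCN4, had at most 0.94 CPM in WT and 1.48, 1.15 and 6.08 CPM in ARID1A-KO replicates 3, 4 and 5, so its log2 fold change of 1.85 rested on ARID1A-KO replicate 5 and was 0.70 without it (adjusted p = 0.0461 from edgeR). Its call was lost without WT replicate 3, 4 or 5, at adjusted p of 0.0784, 0.0744 and 0.0884. WISP2 had at most 7 counts in any sample and WISP3 none. The ANKRD1 paralogs ANKRD2 and ANKRD23 were not called and had log2 fold changes of -0.94 and -0.08 (adjusted p 0.282 and 0.775 from edgeR) at no more than 5.74 CPM, and ANKRD23 had more counts on the forward than on its own strand, so it shares its locus with antisense RNA. ANKRD2 depended on single samples, at -0.40 without WT replicate 3 and -1.98 without ARID1A-KO replicate 5, where it was called (adjusted p = 0.0306 from edgeR).

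Other genes described as YAP or TAZ targets did not share a direction. Of 18 listed, 4 were called higher and 8 lower, with a median log2 fold change of -0.09. CCDC80, a matrix protein, fell most, by 1.87 on the log2 scale, from between 90.3 and 130 CPM in WT to between 26.9 and 31.7 CPM in ARID1A-KO samples. NT5E, the surface enzyme CD73, rose by 1.52 from at most 3.31 CPM, and FJX1, a secreted protein, rose by 1.07 from between 45.3 and 46.9 CPM in WT to 81.0, 90.1 and 119 CPM. AXL, a receptor tyrosine kinase, fell by 0.58, and CRIM1, a membrane protein that binds growth factors, fell by 0.55. Among other genes of this list that were called, F3 (-0.77) and DOCK5 (-0.66) fell further, whereas FOXF2 rose by 0.62. LATS2 and PTPN14, which are targets as well as regulators, are counted here and above.

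CTGF and CYR61 also respond to serum, tension and SRF, so immediate-early genes and SRF/MRTF targets were read beside them. Of 8 immediate-early genes, 4 rose and 1 fell, a count of 5 that became 2 with WT replicate 3 left out, 3 with ARID1A-KO replicate 3 and 1 with ARID1A-KO replicate 4. EGR2 had a log2 fold change of 1.55 at less than 1 CPM in every sample (adjusted p = 0.0176 from edgeR), which became 0.0656 with either WT replicate 3 or ARID1A-KO replicate 3 left out and 0.0553 with ARID1A-KO replicate 4 left out. DUSP1, a phosphatase that switches off MAP kinases, fell by 0.998 from between 88.7 and 122 CPM in WT to between 48.2 and 65.1 CPM in ARID1A-KO samples. Of 8 SRF/MRTF targets, 1 rose and 3 fell. Among those that fell, TAGLN (log2 fold change -0.52, adjusted p = 0.0483 from edgeR) stayed called only without WT replicate 5. Its adjusted p was between 0.0558 and 0.107 with any other sample left out, and 0.110 with its neighbours' median taken off. ACTA2, smooth muscle actin, rose by 0.73 and tropomyosin TPM1 fell by 0.63, and the call of ACTA2 was lost with its neighbours' median taken off (0.42, adjusted p = 0.112 from edgeR).

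**Figure D4:**
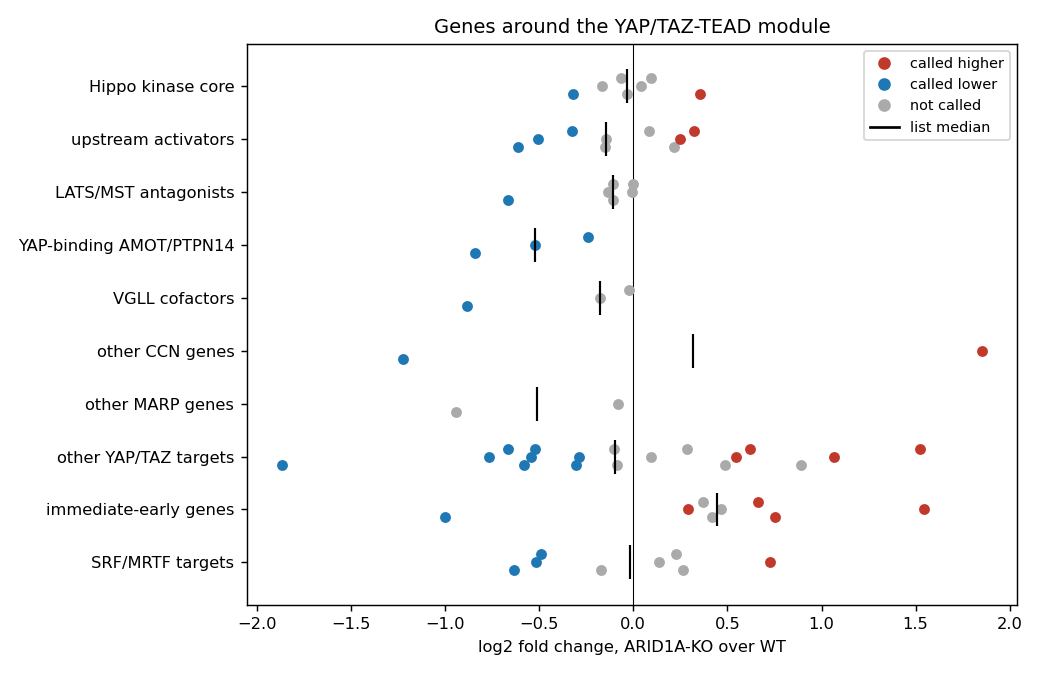
log2 fold change (ARID1A-KO over WT) of each tested gene in the lists around the module (points; red, called higher; blue, called lower; grey, not called), with the median of each list as a black bar. The YAP-binding genes AMOTL1, PTPN14 and AMOT are all below 0, whereas the other YAP/TAZ targets reach from -1.87 to 1.52.

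For each target gene, the genes with the most similar profile over the 6 samples were found by the root mean square difference of centred log2 CPM, among 13217 genes with a mean log2 CPM over 1. For CTGF these were NLRP3, MTSS1 and COL19A1, at differences between 0.09 and 0.12. As their choice by profile implies, each was, like CTGF, highest among the WT samples in replicate 4. ANKRD1 was closest to RP5-991G20.1, BMP7 and RP11-347H15.5 (0.05 to 0.06), and AMOTL2 to SIN3B, MVB12A and ETS2 (0.02 to 0.04). CYR61, nearly flat over the ARID1A-KO samples but between 651 and 768 CPM in WT, was closest to EXOC2, PKIA and AC005307.3 (0.02 to 0.03). With 6 samples in 2 genotypes, many genes share such a profile, and the likeness is a description.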

How the data were processed

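RNA from 3 WT and 3 ARID1A-KO samples of AID-DIvA cells was sequenced in pairs of 100 bp reads on stranded total RNA libraries, whereas the labels give polyA RNA. The authors aligned the reads to hg19/GRCh37 (STAR, run by the Roddy workflow), and the deposited counts are raw featureCounts output. The deposited FPKM and TPM were computed by the authors, and TPM was scaled to 1000000 either over autosomal genes (a signal that sums to more over all genes) or over all genes. Groups were taken from the sample labels.

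Low reverse-stranded counts were removed by filterByExpr, and after TMM normalization the genotypes were compared with edgeR's quasi-likelihood test (edgeR 4.0.16, R 4.3.3) over all 19599 genes with Benjamini-Hochberg adjustment, and a gene with an adjusted p under 0.05 was called. With 54512105 to 84088708 counts per sample, each of the 10 genes had at least 1157 counts in every sample. CPM are TMM-normalized counts per 1000000 counts. TPM, ratios and shares were compared with two-sided exact permutation tests, which cannot go below 0.1 here. No pair of samples agreed within sampling noise. The most alike were ARID1A-KO replicates 3 and 4, with a mean chi-square per gene of 6.94, beside 16.4 to 29.8 for the other pairs within a genotype. No column lacked a sample.

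The 10 genes and all lists were chosen with earlier results of these data known, and no set test was run. Named are the 10 genes, ARID1A, the paralogs and VGLL genes, from each other list the called genes with an absolute log2 fold change of at least 1 and in any case the 2 with the largest, and 3 genes of most similar profile per target. LATS1, LATS2, AXL, CRIM1, F3, DOCK5, FOXF2 and the cell type markers were named after their values were seen. Alternatives for the counts were the unstranded column, RLE size factors, DESeq2 1.42.0, a minimum of 10 counts per sample, no filter, a block for the replicate number, a loess offset (span 0.3) on exonic length, subtraction of the median of genes starting within 5 Mb, removal of each sample, and a threshold of 0.01. Alternatives for TPM were log2 with a pseudocount of 1 or 0.1, a floor of 1, the unstranded column, CPM and FPKM. TPM scaled over all genes was added after seeing the data. On simulated counts of ARID1A-KO against WT with 200 of 19599 genes changed, edgeR recovered 164, including 122 of 130 changed at least 2-fold, with 12 false calls. The simulation gave every gene the same biological spread and changed few genes, whereas 36.2% were called in the data. It checks the procedure and gives no error rates for these data. Promoter sequences are from RefSeq (GRCh38.p14), gene positions from the deposited tables (GRCh37).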

Additional observations from a re-analysis of the deposited data

How the results depend on the processing

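ANKRD1 and TEAD4 were called under all alternatives run, and YAP1 and AMOTL2 under all but the neighbours' offset. With the neighbours' median taken off, 2 of the 10 genes were called and 1 was lower (TEAD4), beside 6281 called of all 19599 genes. The log2 fold change was then 0.0345 for YAP1 and 0.0804 for WWTR1, both with the opposite sign. The offset on exonic length brought TEAD1 to 0.0111, also with the opposite sign, and ended the call of WWTR1. CTGF joined the genes called higher, making 2, without a filter on low counts (0.65, adjusted p = 1.12e-13 from edgeR) and with the replicate block. With the filter it had nearly the same fold change at an adjusted p of 0.0585, and DESeq2 did not call it (0.66, adjusted p = 0.136). Its CPM overlapped between genotypes, so the small p without a filter is not to be read as a firmer result. Without a filter 36390 genes were tested and 8223 were called. With each sample left out, between 4 and 6 of the 10 genes were called, between 1 and 2 of them higher (2 without WT replicate 4 or ARID1A-KO replicate 5) and between 3 and 4 lower. The count over all genes moved as well, from 5285 of 20158 tested without ARID1A-KO replicate 4 to 7050 of 19991 without ARID1A-KO replicate 5. In these runs TEAD3 ranged from -0.0172 to 0.1339 and TEAD2 from -0.1881 to 0.0114. The genes whose TPM did not overlap numbered between 4 and 7, the most without ARID1A-KO replicate 5. With fewer samples the genotypes separate more easily in any gene, and the share over all genes (49.2%) is given only for all samples. This count is therefore not a result about these genes. At an adjusted p under 0.01, 22 genes of the pathway lists were called in place of 34, and 4414 of all genes in place of 7099. The causes were not tested.

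The labels do not say whether samples with the same replicate number share anything beyond that number. Over 9928 genes, Pearson's r of their deviations from the group means was -0.21, 0.54 and 0.35 for numbers 3, 4 and 5. Pairs with different numbers ran from -0.66 (WT replicate 4 with ARID1A-KO replicate 5) to 0.53 (WT replicate 4 with ARID1A-KO replicate 3), with 0.44 for WT replicate 3 and ARID1A-KO replicate 5. These r therefore do not set samples of the same number apart from other pairs. With the number as a block, 6 of the 10 genes were called, CTGF among them (0.73, adjusted p = 0.0115 from edgeR), and 7477 of all genes.

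Of these genes, WWTR1, TEAD2 and TEAD3 had the fewest counts. The data do not exclude changes inside the 95% intervals of TEAD2 (-0.34 to 0.15) and TEAD3 (-0.15 to 0.28), and the smallest detectable change was not computed.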
